A study of Mus musculus with 13 samples.

Results

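The Dlk1-Meg3 imprinted domain of mouse chromosome 12 was followed in 13 bulk RNA-seq libraries through 7 genes: Dlk1, Meg3, Rtl1, Rian, Mirg, Dio3 and Begain. A row of the count table belonged to the domain when its Ensembl identifier carried one of these symbols in the GRCm38 annotation, which found all 7 among 38377 rows. In EpiSC the 3 maternally expressed noncoding RNAs Meg3, Rian and Mirg were abundant. In untreated XEN cells every member lay at 0 to 4 counts in each library. After 5-aza-2'-deoxycytidine, Meg3, Rian and Mirg were counted in all 4 treated XEN libraries, at 0.160% to 1.34% of the wild-type EpiSC level. In EpiSC with an Xist deletion, Dlk1 was about 5 times lower in both library types but short of the threshold in the fit without library type, while Meg3 and Rian kept their order of magnitude.

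An imprinted domain is a stretch of chromosome whose genes are transcribed from the maternal or from the paternal copy alone. At this domain the protein-coding genes Dlk1, Rtl1 and Dio3 are expressed from the paternal chromosome, and the noncoding RNAs Meg3, Rian and Mirg, with the microRNAs and small nucleolar RNAs they host, from the maternal one. DNA methylation placed in the paternal germ line between Dlk1 and Meg3 decides which set is active, and silencing of Meg3 on the maternal copy is a well known epigenetic defect of cultured mouse stem cells. No allele-resolved counts were used here, so no value separates the parental copies.

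XEN cells are stem cells of the extraembryonic endoderm, in which the paternal X chromosome is the inactive one. EpiSC are stem cells of the post-implantation epiblast. All lines were female. The groups were wild-type XEN (2 libraries), XEN with a deletion of the paternal Xist allele (3), each of these genotypes given 5-aza-2'-deoxycytidine at 20 uM (2 libraries each, called Aza here), wild-type EpiSC (2) and EpiSC heterozygous for an Xist deletion (2). The deleted lines are called dXist. 5-aza-2'-deoxycytidine is a cytosine analogue that traps DNA methyltransferases and so lowers DNA methylation in dividing cells. XEN cells grew in serum and EpiSC on matrigel with FGF2 and Activin, per the labels. Duration of treatment and whether replicates came from separate clones or cultures were not given in the sources used here. The p-values therefore measure the spread between these libraries, which may be technical.

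Libraries held 5848454 to 35247432 counts. They were of 2 kinds. In 4 libraries, both treated wild-type XEN libraries and replicate 2 of each EpiSC group, transcripts without poly(A) tails (mt-Rnr1, mt-Rnr2 and Rn7sk) took 10.4% to 13.5% of counts, and these are called total-like. In the other 9, called polyA-like, the share was 0.0152% to 0.279%. Xist stood at 1550 to 1587 CPM (counts scaled to library size with TMM factors) in wild-type XEN, at 1.16 to 4.79 CPM in dXist XEN, at 206 to 815 CPM in wild-type EpiSC and at 0.276 to 0.435 CPM in dXist EpiSC. The 2 treated dXist XEN libraries were unlike: replicate 2 had 242 CPM of Xist against 14.6 CPM in replicate 1. Both lay above the untreated dXist XEN libraries, and the cause was not tested. Markers of primitive endoderm summed to 17295 CPM or more in each XEN library and to 279 CPM or less in each EpiSC library, and 9 of 10 epiblast markers passed the test as higher in wild-type EpiSC.

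The 7 genes span GRCm38 chr12:109032187-110281097. Begain lies at chr12:109032187-109068217 on the minus strand, Dlk1 at chr12:109452823-109463336 on the plus strand, Meg3 at chr12:109541001-109571726 (plus), Rtl1 at chr12:109589193-109600330 (minus), Rian at chr12:109603940-109661716 (plus), Mirg at chr12:109729764-109749460 (plus) and Dio3 at chr12:110279068-110281097 (plus). Begain, Dlk1, Rtl1 and Dio3 are annotated as protein-coding, Meg3 and Mirg as long intergenic noncoding RNAs and Rian as a processed transcript. Rtl1 runs against the direction of the maternal RNAs. The strand used for counting was not given in the sources used here. Reads of Rtl1 and of RNA transcribed across it in the other direction cannot be told apart.

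The promoters of Meg3, Rian and Dlk1 are shown because CG dinucleotides, in capitals, are where DNA methylation sits, and because Meg3 and Rian were the members with the most reads after Aza while Dlk1 held 0 to 3 counts per treated library. The windows of 300 bases lie around the RefSeq transcript start on GRCm38.p6, mostly before it: chr12:109540746-109541045 on the plus strand for Meg3, chr12:109603695-109603994 on the plus strand for Rian and chr12:109452573-109452872 on the plus strand for Dlk1.

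Meg3 promoter: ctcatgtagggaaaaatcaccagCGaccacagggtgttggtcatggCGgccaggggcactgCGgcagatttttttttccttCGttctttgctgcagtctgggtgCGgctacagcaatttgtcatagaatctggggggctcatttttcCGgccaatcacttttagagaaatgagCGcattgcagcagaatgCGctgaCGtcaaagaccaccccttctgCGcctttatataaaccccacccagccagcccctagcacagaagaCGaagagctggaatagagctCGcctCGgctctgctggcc

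Rian promoter: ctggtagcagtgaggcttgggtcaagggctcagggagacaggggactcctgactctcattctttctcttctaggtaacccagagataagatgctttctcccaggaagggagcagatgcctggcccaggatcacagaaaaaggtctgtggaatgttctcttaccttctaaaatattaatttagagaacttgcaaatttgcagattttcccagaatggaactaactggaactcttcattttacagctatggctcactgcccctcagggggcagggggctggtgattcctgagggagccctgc

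Dlk1 promoter: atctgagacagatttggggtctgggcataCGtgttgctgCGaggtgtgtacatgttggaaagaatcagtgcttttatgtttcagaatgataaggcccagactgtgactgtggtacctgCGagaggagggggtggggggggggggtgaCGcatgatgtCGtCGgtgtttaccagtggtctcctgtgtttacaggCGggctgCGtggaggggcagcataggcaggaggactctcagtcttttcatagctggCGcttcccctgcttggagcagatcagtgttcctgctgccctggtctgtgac

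The motif CG, which reads the same on both strands and cannot overlap itself, occurs 13 times in the Meg3 window, 9 times in the Dlk1 window and 0 times in the Rian window. Of all 32851 RefSeq promoter windows of the same length, 37.9% held at least 13, 45.8% held at least 9 and 94.6% held at least 1. The windows of Begain and Dio3 hold 46 and 25, and 1.65% and 18.4% of all promoters hold at least as many. The window of Mirg, which lies 5217 bases from the GENCODE start of the gene, holds 10, and 43.5% of all promoters hold at least as many. Rtl1 had no entry in the promoter table. Methylation itself was not measured.

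Meg3, a nuclear long noncoding RNA transcribed from the maternal chromosome, was with Rian the most abundant member. It had 1070 and 588 CPM in the wild-type EpiSC libraries and 1057 and 762 CPM in the dXist ones. In wild-type XEN the libraries held 4 and 0 counts (0.134 and 0 CPM) and in dXist XEN 1, 2 and 1 counts. No XEN library, treated or not, came near an EpiSC library. In bulk libraries, fewer cells that express a gene and less RNA per cell cannot be told apart. Between wild types the pooled ratio was 13662 to 1, with an exact 95% counting interval of 5336 to 50144, and the fitted log2 difference was 13.53 (SE 0.91), with an edgeR quasi-likelihood adjusted p of 5.57e-05.

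Rian, the host of a large array of box C/D small nucleolar RNAs, followed Meg3. Its wild-type EpiSC libraries had 833 and 1014 CPM, its dXist EpiSC libraries 818 and 1011 CPM, and the 5 untreated XEN libraries 0 to 2 counts each. The log2 difference between wild-type EpiSC and XEN was 14.60 (SE 0.87, edgeR adjusted p = 3.79e-05). Since XEN held 2 counts in all, the pooled ratio of 27539 carries a counting interval from 7623 to 227407. Mirg, the host of the microRNA cluster at the far end, had 55.6 and 144 CPM in wild-type EpiSC, 42.9 and 132 CPM in dXist EpiSC and no count in any of the 5 untreated XEN libraries. Against a floor of 3 counts over the wild-type XEN group, Mirg was at least 2032-fold higher in EpiSC (edgeR adjusted p = 0.000978).

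Dlk1, a transmembrane protein of the Notch ligand type that restrains differentiation, was a low-level gene even in EpiSC. Its wild-type libraries held 200 and 72 counts (5.64 and 3.48 CPM), and the untreated XEN libraries held 4 counts in 1 wild-type library and 0 in the other 4. The log2 difference between wild types was 6.01 (SE 1.31, edgeR adjusted p = 0.0130). Begain, which encodes a synaptic scaffold partner and lies at the outer edge of the domain, had 30 and 25 counts in wild-type EpiSC, 62 and 29 in dXist EpiSC and 0 in every untreated XEN library. It was at least 21.0-fold higher in wild-type EpiSC than in XEN by the same floor (edgeR adjusted p = 0.00953). With polyA-like libraries alone, a comparison added after seeing the data that leaves 1 wild-type EpiSC library, the adjusted p rose to 0.0699 for Dlk1 and 0.0821 for Begain.

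Rtl1, a retrotransposon-derived protein needed in the placenta, held 10 and 6 counts in wild-type EpiSC, 1 and 2 in dXist EpiSC, 4 and 3 in wild-type XEN and 0 in the 3 dXist XEN libraries. Dio3, the deiodinase that inactivates thyroid hormone, held 1 count in a single wild-type and 1 in a single dXist EpiSC library and none elsewhere, which allows at most 0.0490 CPM in wild-type XEN. Neither passed the filter on low counts in any comparison. Of the 5 members that passed it between wild-type EpiSC and XEN, 5 were called higher, beside 16.8% of the 19733 genes tested. These 5 passed the filter through their EpiSC counts, so that count describes them and supports nothing further. Intervals here cover counting error only, and folds against a floor leave out that of the higher group.

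**Figure D1:**
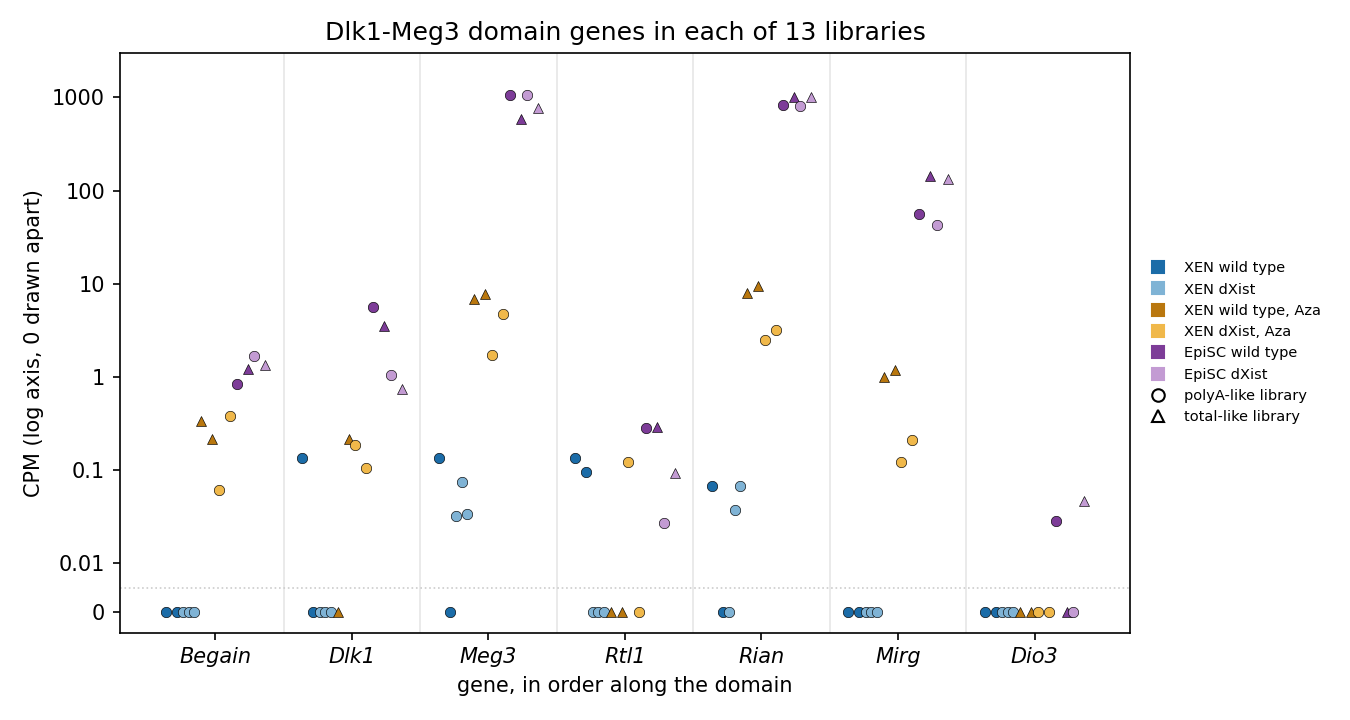
CPM of the 7 members in each library, on a log axis with 0 drawn apart below the dotted line; colours mark the 6 groups, circles polyA-like and triangles total-like libraries. Meg3 and Rian lie between 588 and 1070 CPM in the 4 EpiSC libraries, between 1.72 and 9.46 CPM in the 4 treated XEN libraries and at 0.134 CPM or less in the 5 untreated XEN libraries.

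Per kilobase of annotated exon, Meg3 and Rian stood together at the top. In wild-type EpiSC Meg3 reached 59.2 and 32.5 CPM per kb, Rian 45.7 and 55.6, Mirg 7.63 and 19.7, Dlk1 0.998 and 0.616, Begain 0.192 and 0.274, Rtl1 0.0444 and 0.0457 and Dio3 0.0139 and 0. Meg3 and Rian overlapped between libraries, and from Mirg down each gene lay below its neighbour in this order in both libraries, with no overlap. Among 38240 annotated rows ranked by mean CPM per kb, Rian was at rank 719, Meg3 at 827, Mirg at 3379 and Dlk1 at 13101. All 7 members took 0.199% to 0.200% of counts in wild-type EpiSC, 0.217% to 0.239% in dXist EpiSC and 4.54e-05% or less in untreated XEN.

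The library type changed the balance of the noncoding RNAs. Replicate number and library type are the same split in EpiSC, so that batch and type cannot be told apart there. Mirg was 2.58 times (wild type) and 3.08 times (dXist) as high in the total-like as in the polyA-like library, Rian 1.22 and 1.24 times, Meg3 0.549 and 0.721 times and Dlk1 0.617 and 0.695 times. The per-length ratio of Rian to Meg3 was 0.772 and 0.768 in the polyA-like libraries and 1.71 and 1.32 in the total-like ones. The order of Meg3 and Rian thus differed between library types in both genotypes.

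The rows of small RNAs within the domain differed more strongly between the library types. Between the outer ends of Begain and Dio3 the table holds 70 further rows: 51 microRNA hairpins, 8 small nucleolar RNAs, 8 long noncoding RNAs, 2 pseudogenes and 1 other small RNA. The hairpin rows count reads of long-RNA libraries over the hairpin and do not measure mature microRNAs. The 51 hairpin rows held 2501 counts in the 4 EpiSC libraries, 13 in the 4 treated XEN libraries and 0 in the 5 untreated ones. Of them, 48 were higher in both total-like EpiSC libraries than in both polyA-like ones, as were 8 of 8 small nucleolar RNA rows. The share of all rows that did so was not counted, so these counts only describe the rows. The library types were themselves set by transcripts without poly(A) tails. Summed over the hairpins, the polyA-like EpiSC libraries had 2.40 to 4.62 CPM and the total-like ones 47.0 to 58.7 CPM.

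Mature sequences from RefSeq are shown for the hairpin row with the most reads, Mir433, for Mir127, which like Mir433 lies within the coordinates of Rtl1 on the other strand, and for hairpins that share a seed. The seed, bases 2 to 8, is in capitals.

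miR-433-5p: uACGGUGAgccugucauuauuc

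miR-433-3p: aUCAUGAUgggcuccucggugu

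miR-127-3p: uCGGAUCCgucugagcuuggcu

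miR-379-5p: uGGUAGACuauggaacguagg

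miR-1193-5p: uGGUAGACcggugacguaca

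miR-379-3p: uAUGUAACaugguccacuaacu

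miR-411-3p: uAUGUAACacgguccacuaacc

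miR-370-5p: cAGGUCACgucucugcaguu

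miR-1193-3p: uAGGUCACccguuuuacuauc

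On GRCm38.p6 the printed miR-433-3p is at chr12:109591781-109591802 and miR-127-3p at chr12:109592888-109592909, both on the plus strand. Background from mouse placenta is that microRNAs of this group are fully complementary to the Rtl1 transcript and direct its cleavage. RefSeq places 114 mature microRNAs of 61 hairpin genes in the span, with 104 different seeds. Only 10 seeds are shared by more than 1 hairpin gene. miR-379-5p and miR-1193-5p share GGUAGAC, miR-379-3p and miR-411-3p share AUGUAAC, and miR-370-5p and miR-1193-3p share AGGUCAC. The hairpin rows of these genes were unequal in depth: over the 4 EpiSC libraries Mir433 held 206 counts, Mir1193 162, Mir127 99, Mir411 29, and Mir379 and Mir370 14 each. Mir433 went from 2 and 10 counts in the polyA-like to 90 and 104 in the total-like EpiSC libraries, so that all but a few of its reads come from the latter.

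Among the other rows, the long noncoding B830012L14Rik and Gm37899, which lie between Rian and Mirg, carried most counts. B830012L14Rik had 6.12 and 6.0 CPM in the polyA-like wild-type and dXist EpiSC libraries and 73.1 and 92.1 CPM in the total-like ones. Gm37899 had 9.34 and 4.67 CPM in the polyA-like and 73.0 and 67.2 CPM in the total-like ones. Both were at 0 in the wild-type and dXist XEN libraries without treatment. In EpiSC against XEN, 7 of 47 tested rows of this group were called higher and 0 lower, no larger a share than the 16.8% of all genes, and these rows passed the filter through their EpiSC counts. The processed pseudogene Gm3379 held 193 counts in treated dXist XEN replicate 1 and 7 in replicate 2, and therefore rests on 1 library.

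**Figure D2:**
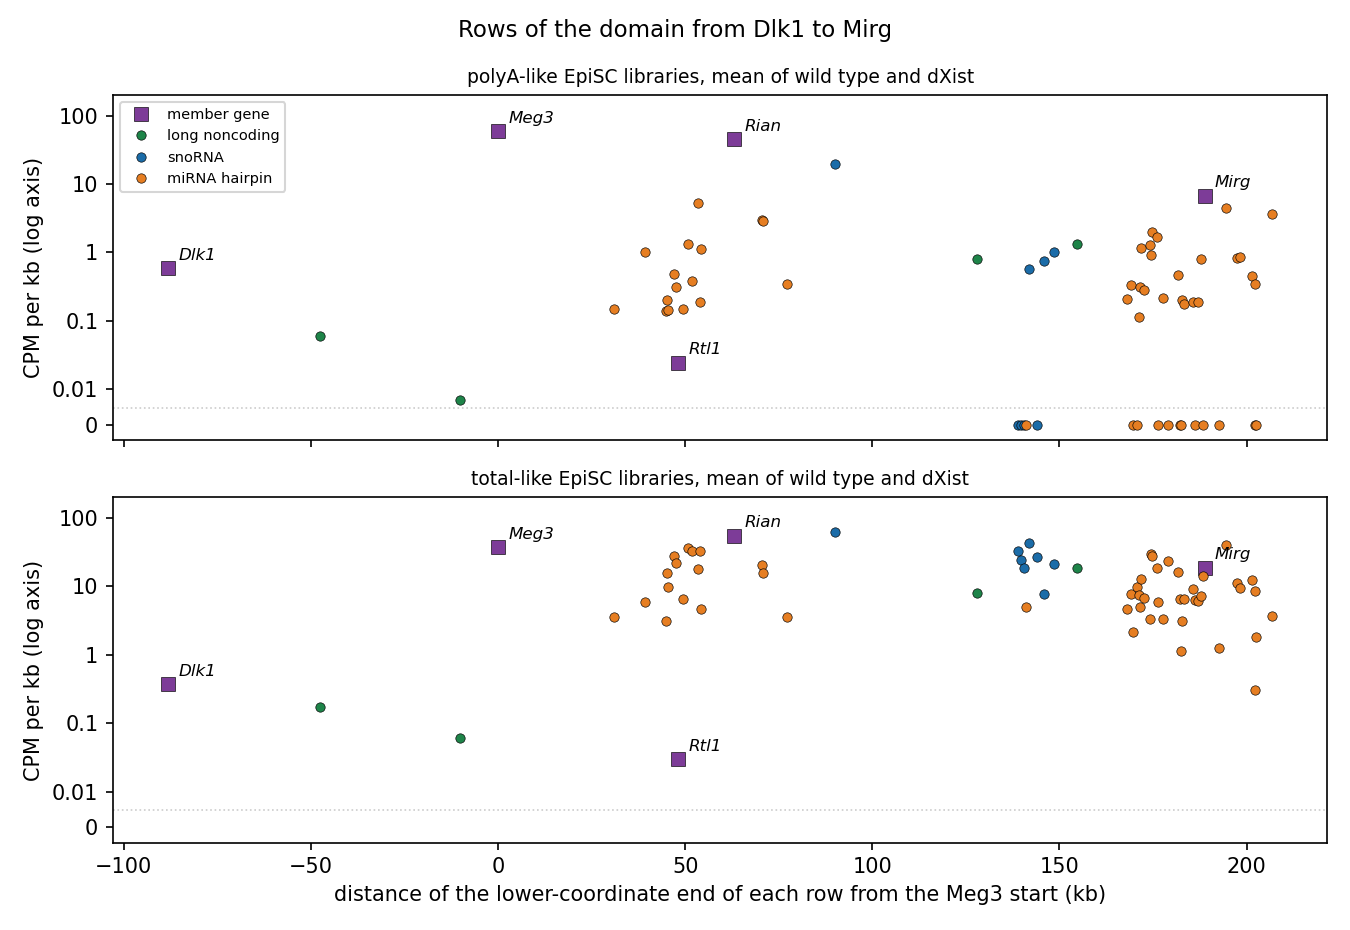
Mean CPM per kb of the wild-type and dXist EpiSC libraries for member genes, long noncoding, snoRNA and microRNA hairpin rows, against distance from the Meg3 start, on log axes with 0 drawn apart; Begain and Dio3 lie outside the window. Hairpin and snoRNA points are higher in the total-like panel, while Dlk1 and Rtl1 stay under 1 CPM per kb in both. A hairpin row is shorter than a library fragment, so its value per kb compares panels and not genes.

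The edges of the domain were looked at through the 5 nearest protein-coding genes on each side. Between wild-type EpiSC and XEN, 0 of these 10 genes were called higher and 2 lower, beside 16.8% and 14.1% of all genes, with log2 differences from -3.0 to 1.09. The lower ones were Wars, a tRNA synthetase gene (log2 difference -2.88, edgeR adjusted p = 0.00168), and Slc25a29, a mitochondrial carrier gene (-2.47, edgeR adjusted p = 0.050). Beyond the other end, Dync1h1 and Hsp90aa1 had 904 ± 454 and 887 ± 15.1 CPM (SD, n = 2) in wild-type XEN. Among the others, 1700001K19Rik, Slc25a47 and Slc25a29 were low in wild-type XEN, at 0.904, 0.974 and 2.65 CPM, so the neighbours were of unlike levels. In each of the comparisons of genotype or treatment, 0 of the flanking genes tested were called.

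Loss of Xist in XEN was the comparison with the least to measure at this domain. Meg3 totalled 4 counts over 2 wild-type libraries and 4 over 3 dXist libraries, and Rian 2 and 3 counts. Mirg, Begain and Dio3 were at 0 in all 5. Of the 4 members that passed the filter, which the treated libraries carried them through, 0 were called by edgeR, 0 had an unadjusted p under 0.05 and 0 were called by DESeq2, beside 0.0217% of all tested genes called in either direction. The members were at or near the floor of 3 counts in both groups, so a difference was not detectable at this depth. The 7 Rtl1 counts in wild-type against 0 in dXist XEN were not tested.

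Treatment with 5-aza-2'-deoxycytidine asked whether lowering DNA methylation changes expression in XEN cells. Meg3, Rian and Mirg had more counts in every treated library than in every untreated library of the same genotype, and so did Begain. The share of all genes without overlap was not counted, so here and below a lack of overlap only describes the genes named. The levels remained far under those of EpiSC.

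In wild-type XEN, Rian went from 2 and 0 counts to 48 and 88 counts, or from a mean of 0.0335 CPM to 8.72 ± 1.06 CPM (SD, n = 2). This rise passed the test (log2 difference 7.92, SE 1.29, edgeR adjusted p = 0.0253). It no longer passed when any 1 of the 4 libraries was left out, with adjusted p from 0.0894 to 0.170. Meg3 went from 4 and 0 to 41 and 73 counts, that is from 0.0670 ± 0.0947 to 7.33 ± 0.737 CPM, with a log2 difference of 6.77 (SE 1.26) and an edgeR adjusted p of 0.0558. Mirg went from 0 and 0 to 6 and 11 counts (at least 22.2-fold, edgeR adjusted p = 0.163) and Begain from 0 and 0 to 2 and 2 counts (at least 5.58-fold, edgeR adjusted p = 0.347). Of the 4 members tested, edgeR called 1 higher, beside 0.549% of all genes called higher. DESeq2 called 3 of the 4, and 529 of the 18393 genes tested higher. These 4 members passed the filter through the treated libraries, so these counts describe them and support nothing further.

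The treated wild-type libraries are total-like and the untreated ones polyA-like, so that in this genotype the drug and the kind of library cannot be told apart. In EpiSC the total-like library had a lower Meg3 level and a Rian level higher by a factor of 1.22 to 1.24, beside pooled ratios between treated and untreated wild-type XEN of 114 for Meg3 (95% counting interval 43.3 to 425) and 272 for Rian (73.8 to 2266). Mirg, whose level was 2.58 to 3.08 times as high in total-like EpiSC libraries, had no count in either untreated library.

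In dXist XEN, treated and untreated libraries are of the same polyA-like kind. The labels name the treated libraries Pat-1 and Pat-2, as untreated replicates 1 and 2, and the fit reported here did not pair them. Rian went from 0, 1 and 2 counts to 41 and 92 counts, that is from 0.0351 ± 0.0340 CPM (SD, n = 3) to 2.85 ± 0.481 CPM (SD, n = 2). Meg3 went from 1, 2 and 1 counts to 28 and 136 counts, or from 0.0469 ± 0.0241 to 3.22 ± 2.12 CPM. Both had groups that did not overlap, and replicate 2 held the higher Meg3 value.

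The log2 differences in dXist XEN were 6.01 (SE 1.02) for Rian and 5.84 (SE 1.05) for Meg3, with edgeR adjusted p of 0.0593 and 0.0608. Mirg, with 2 and 6 counts against 0 in 3 libraries, was at least 4.82-fold higher (edgeR adjusted p = 0.109), and Begain, with 1 and 11 counts against 0, at least 6.45-fold higher (edgeR adjusted p = 0.119). Of the 4 members tested, edgeR called 0, beside 0.0707% of all genes called higher. All 4 had an unadjusted p under 0.05, as did 4921 of the 18393 genes tested, in either direction. DESeq2 called 2 of the 4, and 1619 of all genes higher. These 4 members passed the filter through the treated libraries, so these counts describe them and support nothing further. Without treated replicate 2, the library with the higher Xist level, the log2 differences were 4.83 for Meg3 and 5.74 for Rian. That fit leaves a lone treated library, which is taken to vary as the other groups do, so only these effect sizes are given here.

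Dlk1 held few counts after treatment. The treated wild-type libraries held 0 and 2 counts and the treated dXist ones 3 and 3, at most 0.215 CPM, beside 4 and 0 counts in untreated wild-type and 0 counts in each of the 3 untreated dXist libraries. Over the dXist groups this is 0.133 CPM (exact 95% counting interval 0.0488 to 0.289) against 0 CPM with an upper limit of 0.0422, so both treated dXist libraries lay above all 3 untreated ones. The gene did not pass the filter and was not tested. Rtl1 held 0 and 0, and 2 and 0 counts, and Dio3 none in the 4 libraries. In each treated library the maternally expressed Meg3 and Rian therefore outnumbered the paternally expressed Dlk1, Rtl1 and Dio3 together.

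Against the wild-type EpiSC library of the same type, the treated wild-type libraries reached 1.16% and 1.34% of the level of Meg3, 0.786% and 0.934% of that of Rian and 0.694% and 0.824% of that of Mirg. The treated dXist libraries reached 0.160% and 0.441% for Meg3, 0.301% and 0.383% for Rian and 0.220% and 0.374% for Mirg. Begain reached 17.8% and 27.5% in wild type and 7.24% and 45.1% in dXist, on 1 to 11 counts. Dlk1 reached 0% and 6.17% in wild type and 3.26% and 1.84% in dXist, on 0 to 3 counts. Relative to EpiSC, the shares of Begain and, in 3 of 4 libraries, of Dlk1 were thus above those of the noncoding RNAs, on few counts and from low EpiSC levels.

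Epiblast genes differed among themselves in the same libraries. Sox2 had 0 to 0.108 CPM, Fgf5 0 to 0.0347 CPM, Lefty2 0 to 0.166 CPM and Utf1 0 to 0.108 CPM after treatment, while wild-type EpiSC had at least 52.4, 17.9, 155 and 58.7 CPM. Pou5f1 had 0.703 to 0.765 CPM in untreated and 3.32 to 5.70 CPM in treated wild-type XEN, and 0 to 0.609 and 0.674 to 10.5 CPM in dXist XEN (log2 differences 2.69 and 3.97, edgeR adjusted p = 0.492 and 0.110). Tdgf1 had 0 to 0.159 and 1.83 to 2.16 CPM in wild type and 0 and 0.245 to 2.57 CPM in dXist, with edgeR adjusted p of 0.330 and 0.0754. Every treated library thus had more of both genes than every untreated library of its genotype, as for Meg3 and Rian, although neither gene was called. The 10 epiblast markers summed to 67.2 to 105 CPM in treated and 29.6 to 208 CPM in untreated XEN, most of it Dnmt3b, which untreated XEN also expressed (29.6 to 206 CPM). Their part in the Meg3 and Rian values was not tested.

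The difference between the Aza responses of the genotypes was tested as an interaction. Relative to wild type, the response in dXist was -0.93 (SE 1.68) on the log2 scale for Meg3 and -1.91 (SE 1.69) for Rian, with edgeR adjusted p of 0.890 and 0.768. By edgeR 0 of 4 members were called, with 0 at an unadjusted p under 0.05 and 0 by DESeq2, beside 0.245% of all genes. The standard errors allow differences of several fold in either direction, and the library types differ between the treated groups.

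**Figure D3:**
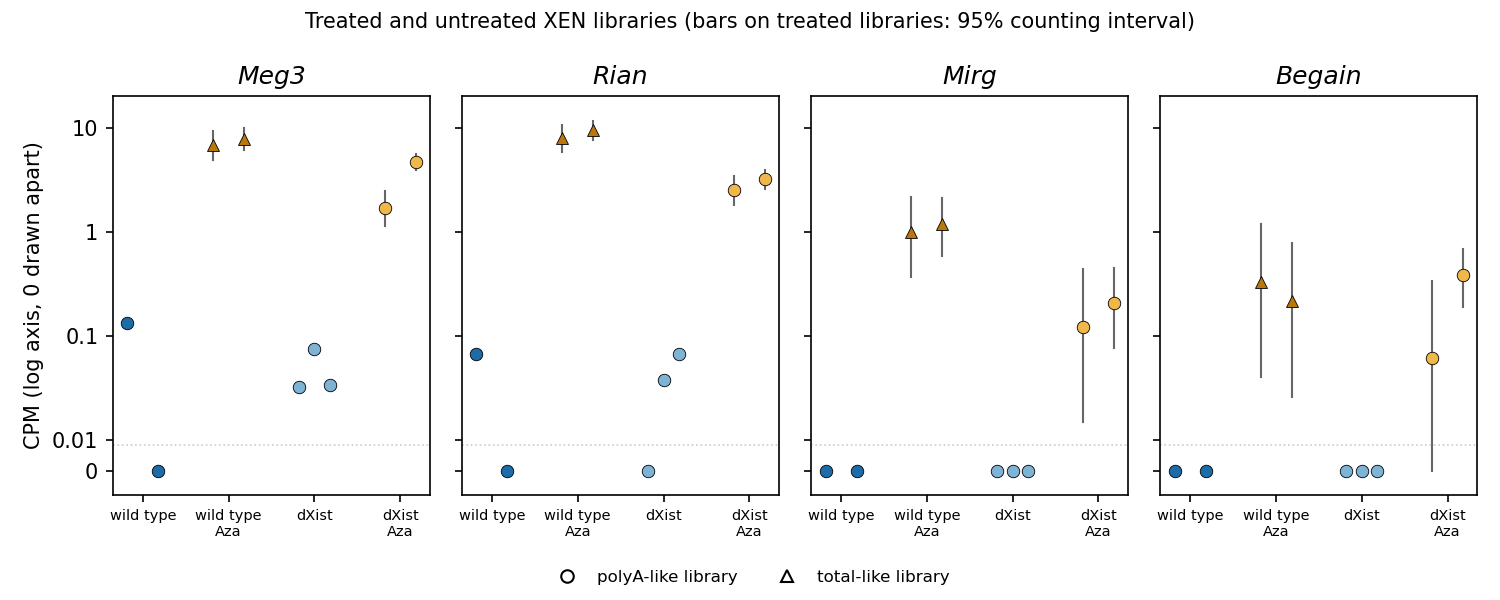
CPM of Meg3, Rian, Mirg and Begain in the 9 XEN libraries, on a log axis with 0 drawn apart; points are libraries, bars on treated libraries are exact 95% counting intervals, triangles are total-like libraries. Every treated library lies above every untreated library of its genotype, with treated Rian values of 7.97 and 9.46 CPM for wild type, and of 2.51 and 3.19 CPM for dXist.

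In EpiSC the Xist deletion went with fewer Dlk1 counts, a difference that edgeR called in the fit of the 4 EpiSC libraries with library type as a term and not in the fit without it. Dlk1 had 200 counts in the polyA-like wild-type library and 39 in the polyA-like dXist library, or 5.64 and 1.06 CPM. In the total-like pair it had 72 and 16 counts, or 3.48 and 0.736 CPM. Both dXist values lay below both wild-type values, with group means of 4.56 ± 1.53 and 0.898 ± 0.228 CPM (SD, n = 2 each).

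Within library type, Dlk1 was 5.33-fold lower (95% counting interval 3.77 to 7.71) in the polyA-like and 4.73-fold lower (2.73 to 8.72) in the total-like pair. The fit without library type gave a log2 difference of -2.31 (SE 0.48) and an edgeR adjusted p of 0.243, short of the threshold. In that fit edgeR called 0 of 5 members, beside 0% of all genes. Of the members, Dlk1 alone had an unadjusted p under 0.05, as did 1741 of the 17132 genes tested. DESeq2 also called Dlk1 alone of the members, beside 377 of all genes lower and 115 higher. With library type as a term the log2 difference was -2.31 with an edgeR adjusted p of 2.93e-06, and 6.53% of all genes were then called lower and 4.91% higher. With so few libraries, that fit leaves almost no spread of a gene's own, so its p-values rest on a spread shared across genes. The same limit holds for every call and p-value of that fit given below. When the 9 XEN libraries joined that fit, it gave -2.32 and an edgeR adjusted p of 1, so the call was not kept there.

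The noncoding RNAs and Begain were not called in either EpiSC fit. Within type, the log2 differences were -0.02 and 0.37 for Meg3, -0.03 and -0.00 for Rian and -0.38 and -0.12 for Mirg, in the polyA-like and total-like pair. Begain differed by 0.99 and 0.14, with 30 against 62 and 25 against 29 counts. The fitted differences without library type were 0.16 (SE 0.45) for Meg3, 0.01 (SE 0.36) for Rian, -0.17 (SE 0.70) for Mirg and 0.58 (SE 0.52) for Begain, with edgeR adjusted p from 0.743 to 0.998. The groups overlapped for Meg3, Rian and Mirg.

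Per kilobase of exon, Meg3 was 59.3 and 52.8 times as abundant as Dlk1 in the wild-type EpiSC libraries and 312 and 324 times in the dXist ones. The ratio was close between library types within a genotype and did not overlap between genotypes. Rtl1, paternally expressed like Dlk1, had 16 counts in wild-type and 3 in dXist EpiSC, too few for the filter.

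**Figure D4:**
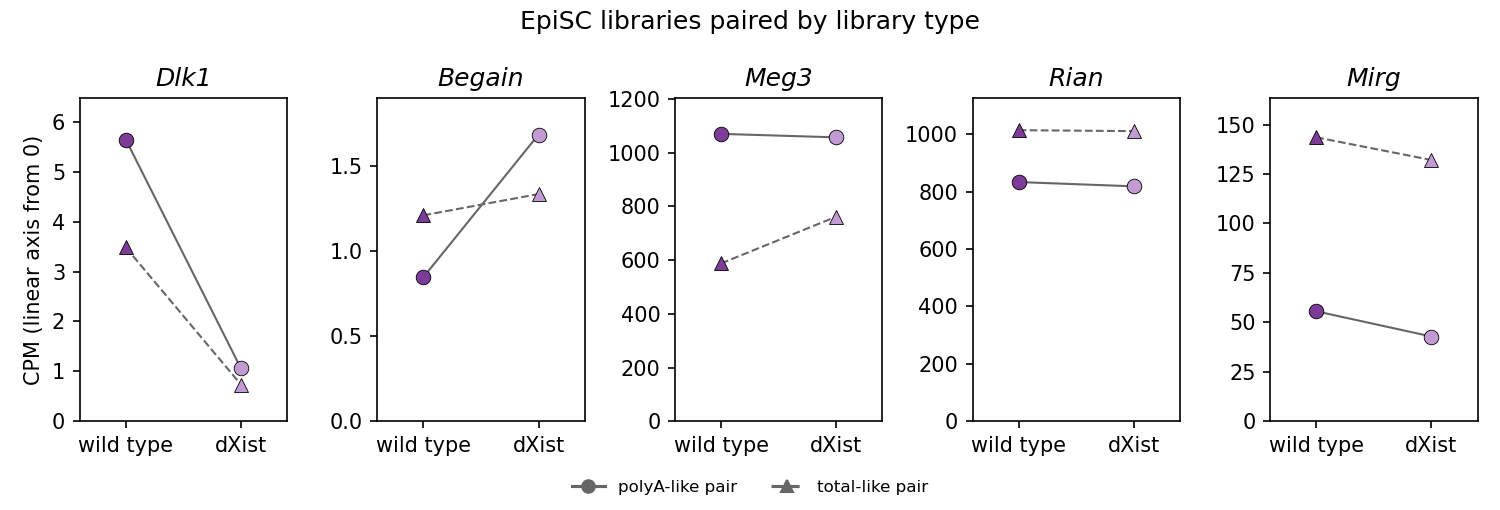
CPM of 5 members in the 4 EpiSC libraries, each panel with its own linear axis from 0; lines join the wild-type and dXist library of the same type. Dlk1 is at 5.64 and 1.06 CPM in the polyA-like and at 3.48 and 0.736 CPM in the total-like pair, while Rian is nearly level in both.

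Most fibroblast and neural markers were lower in dXist EpiSC, as Dlk1 was. The 14 fibroblast markers summed to 896 and 793 CPM in wild-type and 281 and 225 CPM in dXist EpiSC. In the EpiSC fit with library type, edgeR called 9 of the 13 tested lower and 0 higher, beside 6.53% and 4.91% of all genes. It called 0 in the fit without library type and 0 in that of all 13 libraries with it. Col3a1, a fibrillar collagen, had 142 ± 9.05 and 5.20 ± 0.592 CPM, and the matrix proteoglycan Dcn 7.73 ± 0.121 and 0.151 ± 0.0176 CPM. Lum was at 0 in both dXist libraries and Fap in 1 of them. Other fibroblast markers differed less: Loxl1 had means of 9.18 and 7.41 CPM, and Twist2 was higher in dXist, at 1.30 and 1.85 CPM. The 10 neural markers summed to 825 and 524 CPM in wild-type and 430 and 431 CPM in dXist EpiSC. Of these 10, 4 were called lower and 0 higher in the EpiSC fit with library type, beside the same shares of all genes. The other 2 fits called 0 of them. Of the 10 epiblast markers, 5 were lower and 5 higher in the fit without library type, and Lefty2 fell from a mean of 207 to 17.3 CPM. The part of fibroblast or neural cells in the Dlk1 difference was not tested.

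Across all 13 libraries the genes nearest in pattern were taken by Pearson correlation of log2(CPM + 0.5) among 14247 genes outside the domain with a mean of at least 1 CPM. For Meg3 these were Cdh3 (r = 0.995), Dtx4 (0.992), Dnajc6 (0.990), Tdgf1 (0.990) and Hdgfl3 (0.989), and 306 genes had r above 0.95. For Dlk1 they were Ptn (0.989), Pou4f2 (0.988), Ndnf (0.988), Pcdh17 (0.988) and Pde1a (0.988), with 113 genes above 0.95. The points share cell type and library type and fall into an EpiSC and a XEN cluster, so r only describes them. The genes were picked over libraries that include dXist EpiSC, so their levels there partly follow from the choice. Cdh3 averaged 18.1 CPM in wild-type EpiSC and 24.4 CPM after the deletion, and Ptn 24.1 and 1.60 CPM. Hdgfl3, also near Meg3, was lower after the deletion, with means of 108 and 73.4 CPM. Ptn encodes a secreted growth factor and Cdh3 a cadherin.

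The deletion effect in EpiSC minus that in XEN was also tested as an interaction. By edgeR 0 of 5 members were called, with 0 at an unadjusted p under 0.05 and 0 by DESeq2, beside 0.0101% of all genes. Dlk1 in XEN rests on 4 counts in 1 library, so its lower level in dXist EpiSC cannot be called particular to EpiSC.

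Genes that share a pathway with the members were counted from lists. Of the Notch pathway, which Dlk1 can restrain, 19 of 20 genes were tested between wild-type EpiSC and XEN, and 7 were higher and 4 lower, beside 16.8% and 14.1% of all genes, with a median log2 difference of 0.94 beside 0.13 for all genes. The ligand gene Jag1 had 28.5 ± 2.03 CPM in EpiSC and 5.28 ± 1.38 in XEN (edgeR adjusted p = 0.00564), and the coactivator gene Maml1 38.5 ± 3.89 and 126 ± 33.6 CPM (edgeR adjusted p = 0.00629). In dXist against wild-type EpiSC 0 of 19 were called, and 0 in the fit of 13 libraries with library type. In the EpiSC fit with library type 3 were higher and 3 lower, beside 4.91% and 6.53% of all genes, among them Jag1 (9.42 ± 0.504 against 28.5 ± 2.03 CPM, edgeR adjusted p = 8.25e-05) and the Notch target Heyl (0.197 ± 0.0475 against 2.03 ± 0.277 CPM, edgeR adjusted p = 3.23e-07). After Aza 0 of 17 were called in wild-type XEN, whereas dXist XEN had 1, the receptor gene Notch1 (2.83 ± 1.64 to 34.3 ± 3.66 CPM, edgeR adjusted p = 0.0498).

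Of 8 genes of thyroid hormone handling tested, the setting in which Dio3 acts, 2 were higher and 1 lower in wild-type EpiSC, against the same 16.8% and 14.1% of all genes. The hormone carrier gene Ttr was the lower one, with 0 CPM in EpiSC and 19.3 ± 10.3 CPM in XEN (SD, n = 2, edgeR adjusted p = 0.00856). In the genotype and treatment comparisons 0 of the 7 or 8 tested were called in the fits without library type.

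Among 18 genes that write, read or erase imprints, 5 were higher and 1 lower in wild-type EpiSC, against the same shares of all genes, with a median log2 difference of 0.47. Tet1, which oxidises methylcytosine, had 186 ± 40.6 and 31.1 ± 3.78 CPM (edgeR adjusted p = 0.00545). Aff3, a protein found at the control region of this domain, had 43.3 ± 9.52 and 0.18 ± 0.0294 CPM (edgeR adjusted p = 0.00648). Dnmt3l, the cofactor of the de novo methyltransferases, was lower, at 0.202 ± 0.13 against 10.1 ± 5.34 CPM (edgeR adjusted p = 0.00648). Neither Aza comparison called any of the 18.

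Imprinted genes elsewhere gave a mixed comparison with the domain. Zim1, which is maternally expressed in mouse, was counted in the list of paternally expressed genes throughout. Of the 17 genes of that list, 8 were higher and 1 lower in wild-type EpiSC than in XEN, with a median log2 difference of 2.7. Of 11 genes listed as maternally expressed, 2 were higher and 1 lower, with a median of 0.87. All genes had 16.8% higher, 14.1% lower and a median of 0.13. Mest had 477 ± 172 and 1.02 ± 1.44 CPM (edgeR adjusted p = 0.00238), and Grb10, which restrains growth factor signalling, 1228 ± 174 and 74.2 ± 13.4 CPM (edgeR adjusted p = 0.000115). In dXist against wild-type XEN 1 of the 11 maternally expressed genes was called, Grb10, which was lower (0.137 ± 0.0297 against 74.2 ± 13.4 CPM, log2 difference -9.03, edgeR adjusted p = 4.55e-05), and 0 of 15 paternally expressed ones.

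After Aza, Grb10 was called in dXist XEN (0.137 ± 0.0297 to 1.66 ± 0.430 CPM, edgeR adjusted p = 0.0498), the only 1 of 11 maternally expressed genes. In wild-type XEN it had 74.2 ± 13.4 CPM untreated and 31.9 ± 0.886 CPM treated (log2 difference -1.13, edgeR adjusted p = 0.258). Of 15 paternally expressed genes 1 was called in wild-type XEN, the noncoding RNA Kcnq1ot1 (7.13 ± 3.59 to 128 ± 52.6 CPM, edgeR adjusted p = 0.0488). That call was lost with replicate number as a term (edgeR adjusted p = 0.0797), and with library type in 13 libraries 0 of the list were called.

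In dXist EpiSC none of either list was called without library type, or in 13 libraries with it. In the EpiSC fit with library type, 1 of 11 genes of the maternally expressed list was higher and 2 lower, beside 4.91% and 6.53% of all genes. Of 17 genes of the paternally expressed list 1 was higher and 3 lower, beside the same shares. Zim1, itself maternally expressed, was among the lower ones. The higher ones were Slc22a18 (1.60 ± 0.270 against 0.605 ± 0.376 CPM, edgeR adjusted p = 0.0220) and Magel2 (4.75 ± 0.307 against 1.82 ± 0.105 CPM, edgeR adjusted p = 0.00600). The lower ones were H19 (34.7 ± 2.90 against 383 ± 67.5 CPM, edgeR adjusted p = 3.13e-18), Cdkn1c (edgeR adjusted p = 0.0422), Igf2 (0.486 ± 0.427 against 9.33 ± 10.9 CPM, edgeR adjusted p = 1.29e-13), Mest (113 ± 32.0 against 477 ± 172 CPM, edgeR adjusted p = 9.37e-07) and Zim1 (edgeR adjusted p = 0.00416). The SD of Igf2 in wild type exceeded its mean.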

How the data were processed

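RNA was read as bulk libraries from 13 samples. Per the labels, total RNA was taken with Trizol and libraries were made with NEBNext Ultra or TruSeq stranded kits; the kit of each library was not given in the sources used here. The deposited values are raw counts per gene, whole numbers with no normalization by the authors. Per the submitters' processing notes, FastQC, STAR 2.7.9a and featureCounts 2.0.1 were used on GRCm38 (mm10); the strand and the handling of multi-mapped reads were not given in the sources used here.

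GENCODE vM21 (GRCm38) gave symbols and coordinates for 38240 of 38377 identifiers. Counts were tested in R 4.3.3 with edgeR 4.0.16 (TMM, filterByExpr, robust quasi-likelihood F test) and Benjamini-Hochberg adjustment over all genes tested, called under 0.05. The fits held the 9 untreated, the 9 XEN or the 4 EpiSC libraries, with group as the term. SE is the log2 difference divided by the root of F. Library type was called total-like above 5% of counts in mt-Rnr1, mt-Rnr2 and Rn7sk. Levels are CPM on TMM-scaled library sizes, and per kb uses exon length. Intervals are exact 95% Poisson or binomial intervals. Folds against a group at 0 use a floor of 3 counts over the group, and fitted folds are not given for them. They are not lower limits, which come from the exact interval of the pooled ratio. Alternatives were RLE scaling, no filter, DESeq2 1.42.0, a replicate block, fits of all 13 libraries with and without library type, leaving out each library, and a pseudocount of 0.1 for likeness; polyA-like libraries alone were added after seeing the data. The fits were tested on simulated counts.

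The members, gene lists and tests were chosen with earlier results of these data known. Named genes were all members, up to 8 other rows of the span by total count, 5 flanking genes on each side, up to 4 genes per list with the smallest adjusted p in a comparison, and the 5 genes most like Meg3 and Dlk1. One gene among those named by this rule is not reported here; the others are not all described.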

Additional observations from a re-analysis of the deposited data

How the results depend on the processing

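The 5 members called between wild-type EpiSC and XEN came to 3 with polyA-like libraries alone, an alternative chosen after seeing the data, and to 4 or 5 when 1 library was left out; the other alternatives gave 5. In dXist EpiSC the count of 0 became 1 (Dlk1) with no filter, with DESeq2 (adjusted p = 0.0250) and with the replicate block (adjusted p = 2.93e-06), and stayed 0 in the other 3 and when a library was left out. In dXist XEN the labels give the treated libraries the names Pat-1 and Pat-2, as for untreated replicates 1 and 2. Untreated replicate 3, Pat-3, has no treated partner. What a shared name stands for was not given, and elsewhere replicate numbers share no stated source. The reported fits did not pair by these names, and the replicate block did. Same-numbered EpiSC libraries deviated together (correlation 0.748), and there the number is the library type; elsewhere correlations ran from -0.143 to 0.0942, and the block changed no other count of members called. For Aza in wild-type XEN the count of 1 became 3 with no filter, 3 with DESeq2, 2 with 13 libraries in the fit and 0 when any library was left out. For Aza in dXist XEN the count of 0 became 2 with no filter, 2 with DESeq2, 3 with 13 libraries with or without library type, and 0 to 2 when a library was left out (1 without untreated replicate 3, 2 without treated replicate 2). The other comparisons stayed at 0 throughout. Of the single-gene log2 differences, 10 changed sign, all uncalled: Rian in dXist EpiSC was -0.020 with no filter, -0.015 in 13 libraries with library type and -0.014 in 13 libraries, and leaving out a library gave -0.15 to 0.17 for Rian, -0.19 to 0.64 for Meg3, -1.19 to 0.68 for Mirg and, for the Meg3 Aza interaction, -4.64 to 0.064. Over all genes, calls ran from 3289 to 7893 for EpiSC against XEN (6085 as reported), 1 to 684 for dXist XEN (4), 0 to 1960 for dXist EpiSC (0), 1 to 747 for Aza in wild-type XEN (107), 0 to 2905 for Aza in dXist XEN (14), 0 to 337 for its interaction (45) and 0 to 743 for the deletion interaction (2). Leaving out a library gave 3045 to 4864, 1 to 510, 0 to 174, 44 to 61, 0 to 4730, 28 to 1605 and 1 to 670. With a pseudocount of 0.1, 3 of the 5 genes nearest Meg3 and 1 of the 5 nearest Dlk1 were shared. The causes were not tested. With 2 or 3 libraries a group, members at 0 to 4 counts in XEN limit every fold.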
